A study of Mus musculus with 19 samples.

Results

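The genes described here were the ligands and receptors of the vascular endothelial growth factor (VEGF) and angiopoietin systems that were measured in mouse endometrium. They were 10 genes of the 49089 in the count table, listed by name and matched to the deposited gene identifiers through mouse GENCODE symbols: the ligands Vegfa, Vegfc and Vegfd, the VEGF receptors Kdr, Flt1 and Flt4, the receptors Tek and Tie1, and the angiopoietins Angpt1 and Angpt2. All 10 matched. The choice used no measured value of these libraries in its rule.

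RNA-seq was performed on endometrium scraped from the myometrium of wild-type C57Bl/6 females aged 8 to 14 weeks, in 19 libraries of 5 groups, each made from pooled samples. CONT (3 libraries, numbered 1, 2 and 4) came from virgin females at estrus, around ovulation, with no mating. INT (4 libraries) were females mated to intact BALB/c males and collected on day 3.5 post coitum (pc), shortly before embryos attach. SVX, SVX_VAS and VAS (4 libraries each) were females collected at the same day after mating to BALB/c males that had undergone surgery, and since the labels tie different surgeries to these groups in different places they are called by their column prefix and carry no surgery name. Estrus tissue was collected late in the evening and mated tissue around midday, so hormonal stage, mating and time of day cannot be told apart between CONT and the mated groups. How many animals made up a pool was not given in the sources used here, and the p-values measure the spread between these libraries.

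Vascular endothelial growth factors are secreted proteins that act through receptor tyrosine kinases on endothelial cells and drive sprouting, permeability and survival of vessels. Kdr (VEGFR2) carries most of the growth signal of Vegfa, Flt1 (VEGFR1) binds Vegfa tightly with little kinase activity and is also made as a soluble trap, and Flt4 (VEGFR3) answers Vegfc and Vegfd and is best known from lymphatic vessels. Angpt1 activates Tek (Tie2) and steadies vessels with their pericytes, Angpt2 can oppose it, and Tie1 is a partner of Tek. In the adult uterus, vessels grow and regress with each reproductive cycle and again at implantation.

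The promoters of 4 genes are shown because the results turn on them: Kdr, Tek and Tie1, 3 receptors that were far higher after mating, and Vegfa, a ligand that was not called. Each window runs from 250 bases before to 50 bases after a RefSeq transcript start on build GRCm38.p6, printed 5′ to 3′ on the gene's own strand. The windows are chr5:75978406-75978705 on the minus strand for Kdr, chr4:94739039-94739338 on the plus strand for Tek, chr4:118489800-118490099 on the minus strand for Tie1 and chr17:46032328-46032627 on the minus strand for Vegfa. Capitals mark GGAA, the core bound by ETS factors such as those of endothelial cells, or TTCC, which is the same core on the other strand.
Kdr: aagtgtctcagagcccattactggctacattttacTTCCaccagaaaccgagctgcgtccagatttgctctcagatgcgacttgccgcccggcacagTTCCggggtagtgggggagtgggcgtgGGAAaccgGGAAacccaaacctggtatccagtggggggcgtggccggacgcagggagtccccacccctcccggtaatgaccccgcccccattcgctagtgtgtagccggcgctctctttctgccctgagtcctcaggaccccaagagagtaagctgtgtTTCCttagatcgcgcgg
Tek: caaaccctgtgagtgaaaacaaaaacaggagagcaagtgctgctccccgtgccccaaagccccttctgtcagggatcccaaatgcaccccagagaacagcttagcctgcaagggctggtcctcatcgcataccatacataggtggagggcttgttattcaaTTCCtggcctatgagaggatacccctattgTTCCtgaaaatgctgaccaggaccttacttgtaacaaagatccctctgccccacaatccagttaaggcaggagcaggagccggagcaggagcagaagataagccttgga
Tie1: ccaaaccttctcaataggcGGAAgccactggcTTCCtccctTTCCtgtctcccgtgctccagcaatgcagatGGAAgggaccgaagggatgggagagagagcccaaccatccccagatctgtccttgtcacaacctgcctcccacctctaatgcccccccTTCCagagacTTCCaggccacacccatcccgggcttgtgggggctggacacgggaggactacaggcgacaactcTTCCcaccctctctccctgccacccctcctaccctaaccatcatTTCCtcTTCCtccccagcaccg
Vegfa: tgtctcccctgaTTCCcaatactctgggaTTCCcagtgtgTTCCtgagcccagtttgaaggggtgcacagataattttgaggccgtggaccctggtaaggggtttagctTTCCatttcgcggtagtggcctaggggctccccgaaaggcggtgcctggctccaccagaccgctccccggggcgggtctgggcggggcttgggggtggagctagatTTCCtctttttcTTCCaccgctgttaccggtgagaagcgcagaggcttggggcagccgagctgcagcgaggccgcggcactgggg

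GGAA on either strand is so short that 96.0% of the 32851 promoter windows of this length held it. The Tie1 window held 9 copies, and 1.59% of all windows held as many. Most of that window before its RefSeq start lies inside the GENCODE bounds of Tie1, which reach chr4:118490061. Kdr had 5 copies and Tek had 2, counts reached by 28.6% and 84.6% of all windows, and the Vegfa window had 6 (15.7%). The longer form AGGAAG, searched on both strands and overlapping the GGAA copies, was found 2 times at Tie1 and not in the other 3 windows, against 35.4% of all windows with at least 1 copy. The GC box GGGCGG, on either strand, was found 2 times each at Kdr and Vegfa and not at Tek or Tie1, and 35.7% of all windows held it. The core of the hypoxia response element is ACGTG or GCGTG. On either strand, ACGTG was in none of these 4 windows and in 19.6% of all windows, and GCGTG was found 2 times at Kdr, not in the other 3, and in 32.4% of all windows. A window at another Vegfa start in the same table, not shown, held 1 copy of each. These are letter matches in a fixed window, not measured binding sites. RefSeq windows were matched for 8 of the 10 genes, and Angpt1 and Angpt2 are named only.

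All 10 genes are protein coding in the GENCODE annotation of GRCm38. Vegfa lies at chr17:46016993-46032369, Vegfc at chr8:54077606-54187096 and Vegfd at chrX:164373378-164402650. The VEGF receptors lie at chr5:75932827-75978458 (Kdr), chr5:147561604-147726011 (Flt1) and chr11:49609263-49652739 (Flt4). Tek and Tie1 share chromosome 4, at chr4:94739289-94874976 and chr4:118471191-118490061. Angpt1 lies at chr15:42424723-42676977 and Angpt2 at chr8:18690263-18741562, the latter within the bounds of Mcph1. Exons of 9 of the 10 overlapped no exon of another gene. Angpt1 exons overlapped those of Gm17473 on the opposite strand, which had at most 31 counts in any library, and whether reads were counted by strand is not given in the sources used here.

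Library totals ran from 12661266 to 31781270 counts, so that 3 counts, the limit that a count of 0 allows, corresponded to 0.0944 to 0.237 CPM (counts scaled to a common library total). Levels are given as CPM scaled with TMM factors, and the 17222 genes that reached 3 CPM in 3 or more libraries were tested. All 10 genes passed. Vegfc and Angpt1 were under 3 CPM in every estrus library and passed through the mated libraries alone, so a rise of these 2 was in part a condition of being tested. Vegfd was under 3 CPM in its lowest estrus library (1.77 CPM), so it too needed a mated library to pass. VAS replicates 2 and 3 stood apart from the other 17 libraries: the 20 most abundant genes took 1.82% and 1.84% of their counts against 5.49% to 7.46% elsewhere, and the nuclear RNA Malat1 stood at 544 and 545 CPM against 8210 to 13963 CPM. The logFC of VAS against CONT, the test among mated groups, the correlations and the differences of VAS ratios from INT are also given without them (for overlaps, correlations and ratios, a choice made after the data were seen), whereas levels, marker sums and list values of VAS include them. The 7 epithelial, 8 stromal and 7 smooth muscle markers were all above the filter, so that passing it does not tell endometrium from uterine muscle.

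After mating, receptors and the ligands Vegfc, Vegfd and Angpt1 were higher than at estrus, while Vegfa and Angpt2 were not called. In INT against CONT, 8 of the 10 genes rose, from 1.66-fold for Flt1 to 10.01-fold for Angpt1, and none fell. Across all tested genes 20.9% were called higher and 12.7% lower. A call required an edgeR quasi-likelihood FDR (Benjamini-Hochberg over all tested genes) of 0.05 or less and a fold of at least 1.5. The median log2 fold change (logFC) was 1.60 over the 10 genes and -0.01 over all tested genes. The INT and CONT libraries did not overlap for 9 of the 10 genes, all of them higher in INT, a pattern held by 31.0% of tested genes.

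**Figure D1:**
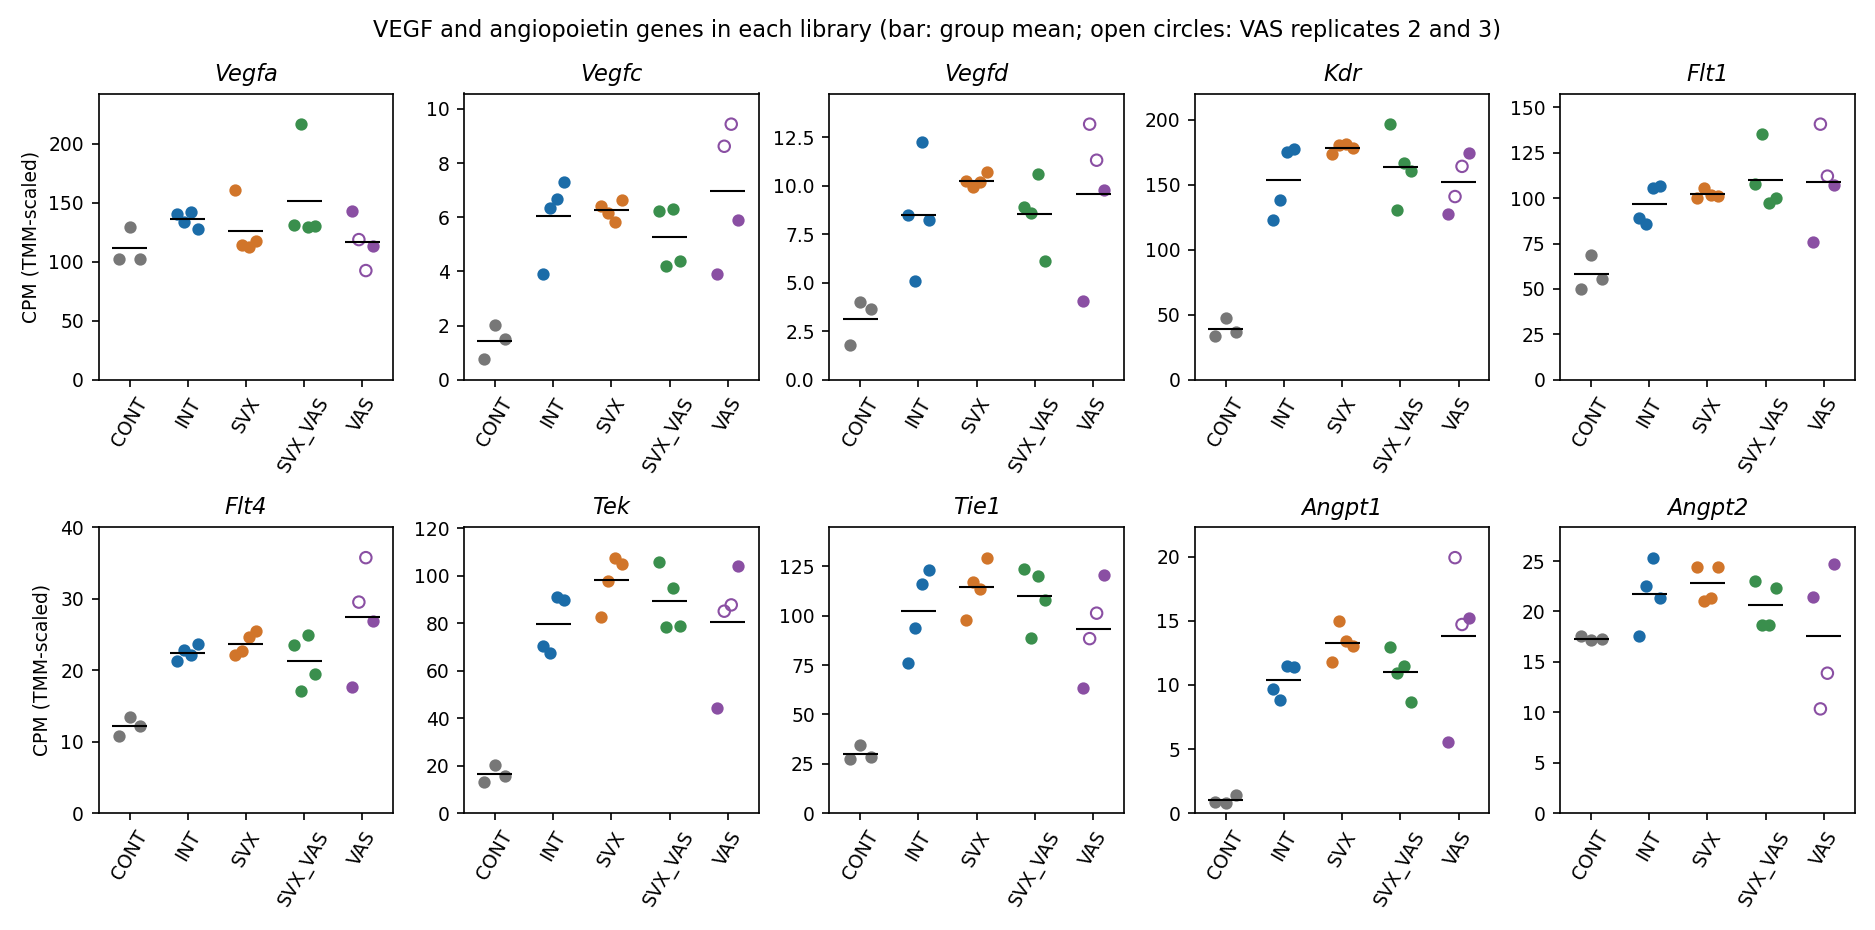
Level of each of the 10 genes (CPM scaled with TMM factors, linear axes from 0, 1 panel per gene) in every library of the 5 groups; the bar is the group mean and open circles are VAS replicates 2 and 3. Kdr runs from 33.3 to 47.6 CPM at estrus and from 122 to 197 CPM in the 16 mated libraries, whereas Vegfa overlaps between estrus and every mated group.

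Vegfa, the main ligand of the family, was the most abundant of the 10 genes per length in every group. Its estrus libraries stood at 102, 129.6 and 102 CPM and its INT libraries at 140.1, 134, 142 and 128 CPM. The SVX libraries held 161, 114, 112 and 118 CPM of Vegfa, the SVX_VAS libraries 131, 217, 129 and 130.02 CPM, and the VAS libraries 143, 119, 92.5 and 113 CPM. The lowest INT library was just under the highest estrus library, and every mated group overlapped estrus. The logFC of Vegfa in INT was 0.29 (SE 0.19, FDR 0.228 by edgeR), with a 95% interval from -0.12 to 0.69. It was 0.18 (FDR 0.449) in SVX, 0.45 (FDR 0.0573) in SVX_VAS and 0.07 (FDR 0.762) in VAS, and no call was made. The SVX_VAS value rested on replicate 2, the highest of all 19 libraries for this gene: without it the logFC was 0.22. Without SVX replicate 1, the SVX value was 0.04. With upper quartile scaling in place of TMM, the SVX_VAS value was 0.59 (FDR 0.00926) and passed the call. Under 8 other alternatives Vegfa in SVX_VAS had an FDR between 0.0333 and 0.0493 with a fold under 1.5, as it had in INT when only the groups compared were fitted (FDR 0.0418).

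Vegfc and Vegfd, the ligands of Flt4, were among the least abundant of the genes and rose in INT. Vegfc had 0.768, 2.03 and 1.51 CPM at estrus (13 to 57 counts) and 3.91, 6.32, 6.69 and 7.30 CPM in INT. It had 6.42, 6.17, 5.81 and 6.62 CPM in SVX, 6.24, 4.19, 6.29 and 4.38 CPM in SVX_VAS, and 3.92, 8.62, 9.44 and 5.89 CPM in VAS. Each of the 16 mated libraries was above each estrus library. The rise of Vegfc in INT was 4.16-fold (logFC 2.06, SE 0.35, edgeR FDR 0.000179). Vegfd had 1.77, 3.99 and 3.62 CPM at estrus and 8.49, 5.07, 12.2 and 8.21 CPM in INT. It had 10.2, 9.92, 10.2 and 10.7 CPM in SVX, 8.88, 8.59, 10.6 and 6.14 CPM in SVX_VAS, and 4.03, 13.2, 11.3 and 9.75 CPM in VAS. INT spread more widely for Vegfd than for Vegfc, and VAS replicate 1 was only just above the highest estrus library. The rise of Vegfd in INT was 2.71-fold (logFC 1.44, SE 0.37, edgeR FDR 0.00469).

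Kdr, the main signalling receptor of Vegfa, changed most among the VEGF receptors. It stood at 33.3, 47.6 and 36.8 CPM at estrus and at 122, 138, 175 and 178 CPM in INT. It stood at 174, 181, 181 and 178 CPM in SVX, at 197, 130.2, 167 and 160.3 CPM in SVX_VAS, and at 127, 141, 164 and 175 CPM in VAS. The lowest mated library, INT replicate 1, was far above the highest estrus library. Kdr was 3.905-fold higher in INT (logFC 1.97, SE 0.17), with the lowest FDR of the 10 genes in this comparison (1.56e-06, edgeR).

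Flt1, the receptor that binds Vegfa without strong signalling, rose less. It stood at 49.8, 68.7 and 55.6 CPM at estrus and at 89.0, 85.7, 105 and 106 CPM in INT. It stood at 100.1, 105, 102 and 101 CPM in SVX, at 108, 135, 97.3 and 100.3 CPM in SVX_VAS, and at 75.9, 141, 112 and 107 CPM in VAS. No mated library of Flt1 reached down to the estrus range, although VAS replicate 1 came close. The INT rise was 1.66-fold (logFC 0.74, SE 0.17, edgeR FDR 0.00215), and a test against the 1.5-fold bound itself (glmTreat) did not call it (FDR 0.243).

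Flt4, the receptor of Vegfc and Vegfd, had 10.7, 13.5 and 12.2 CPM at estrus and 21.3, 22.8, 22.1 and 23.7 CPM in INT. It had 22.1, 22.7, 24.6 and 25.5 CPM in SVX, 23.6, 17.02, 24.9 and 19.5 CPM in SVX_VAS, and 17.7, 29.5, 35.7 and 26.9 CPM in VAS. The INT libraries lay within a narrow band above all estrus libraries, and the VAS libraries spread the most. The INT rise was 1.85-fold (logFC 0.88, SE 0.18, edgeR FDR 0.000935), which glmTreat against 1.5-fold did not call (FDR 0.0771).

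Tek, the angiopoietin receptor, rose more than any VEGF receptor on the logFC scale, a difference between genes that was not tested. It stood at 13.2, 20.1 and 15.7 CPM at estrus and at 70.6, 67.6, 90.8 and 89.7 CPM in INT. It stood at 82.5, 97.7, 108 and 105 CPM in SVX, at 106, 78.5, 94.9 and 78.8 CPM in SVX_VAS, and at 44.5, 85.0, 87.7 and 104 CPM in VAS. Even VAS replicate 1, the lowest mated library, was above every estrus library. Tek was 4.86-fold higher in INT (logFC 2.28, SE 0.24, edgeR FDR 5.25e-06). Tie1, its partner, stood at 27.3, 34.4 and 28.4 CPM at estrus and at 76.2, 93.9, 116 and 123 CPM in INT. It stood at 97.7, 117, 114 and 129 CPM in SVX, at 123, 88.8, 120.3 and 108 CPM in SVX_VAS, and at 63.5, 88.4, 101 and 121 CPM in VAS. The INT libraries ranked in the same order for Tie1 as for Kdr, and no mated library overlapped estrus. Tie1 was 3.40-fold higher in INT (logFC 1.77, SE 0.21, edgeR FDR 9.40e-06).

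Of the angiopoietins, Angpt1 rose and Angpt2 was not called. Angpt1, the activating ligand of Tek, was the lowest of the 10 genes per length at estrus, with 0.886, 0.820 and 1.43 CPM (15 to 23 counts), and had 9.69, 8.83, 11.5 and 11.4 CPM in INT. It had 11.8, 15.0, 13.4 and 13.0 CPM in SVX, 13.0, 10.9, 11.5 and 8.70 CPM in SVX_VAS, and 5.54, 19.9, 14.7 and 15.2 CPM in VAS. All mated libraries were above all estrus libraries. The INT rise of Angpt1 was 10.01-fold (logFC 3.32, SE 0.35, edgeR FDR 5.00e-06). Angpt2, which can oppose Angpt1, had 17.5, 17.1 and 17.3 CPM at estrus and 17.6, 22.5, 25.3 and 21.4 CPM in INT. It had 24.4, 21.02, 21.3 and 24.4 CPM in SVX, 23.0, 18.6, 18.7 and 22.4 CPM in SVX_VAS, and 21.4, 10.3, 13.9 and 24.7 CPM in VAS. INT replicate 1 was only marginally above the highest estrus library, and in VAS the libraries lay on both sides of estrus. The INT logFC of Angpt2 was 0.33 (SE 0.22, edgeR FDR 0.239), with a 95% interval from -0.14 to 0.80. It was 0.40 (FDR 0.138) in SVX and 0.26 (FDR 0.348) in SVX_VAS. In VAS its logFC was 0.02 (FDR 0.942) with all libraries and 0.46 (FDR 0.0147, under 1.5-fold) without VAS replicates 2 and 3, which were the lowest 2 of all 19 libraries for this gene. The groups are fitted together, and the same omission gave 0.35 (FDR 0.0194) in INT, 0.42 (FDR 0.00626) in SVX and 0.28 (FDR 0.0483) in SVX_VAS, all under 1.5-fold. In SVX, the FDR of Angpt2 was also 0.00289 with only the groups compared (logFC 0.42) and 0.0298 with upper quartile scaling (logFC 0.57), again under 1.5-fold.

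**Figure D2:**
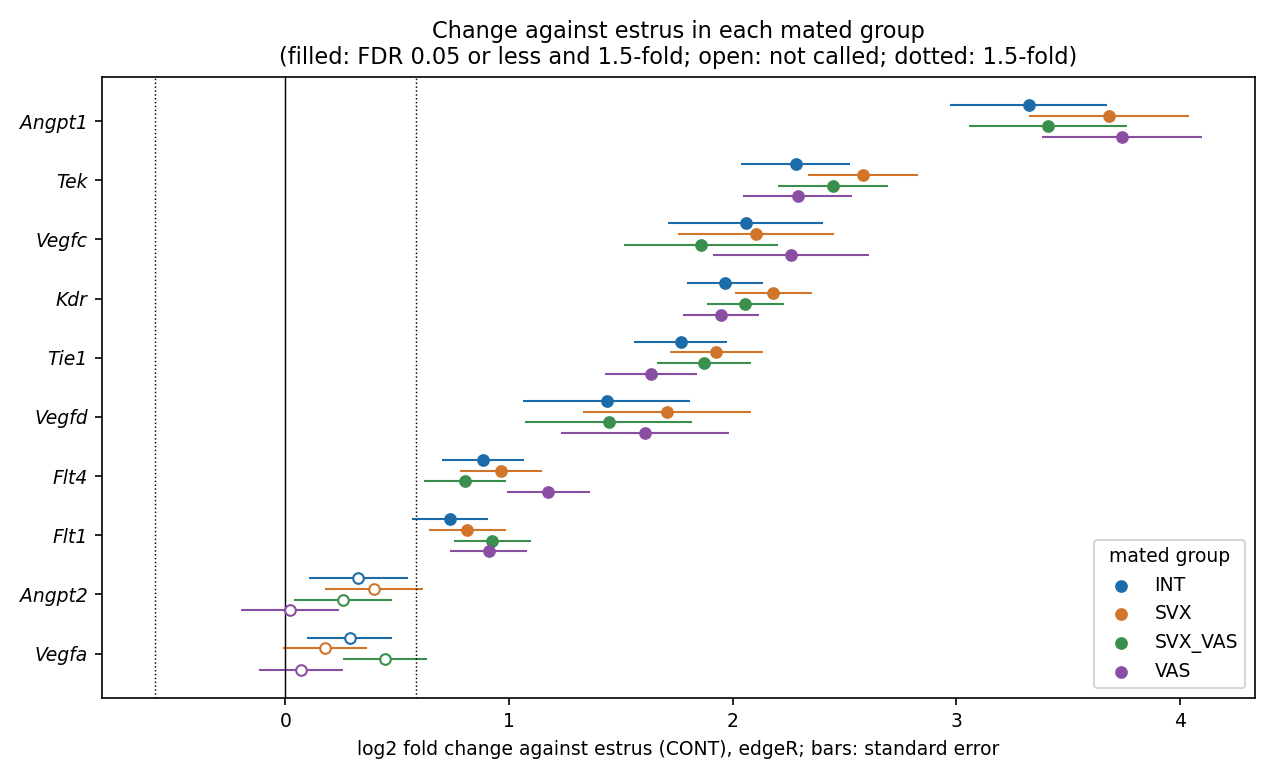
Log2 fold change against estrus of each gene (rows) in the 4 mated groups (colours), from the edgeR fit, with the standard error as a bar; filled points were called, open points were not, and dotted lines mark 1.5-fold. Angpt1 lies from 3.32 to 3.74 and Tek from 2.28 to 2.58, while every point of Vegfa and Angpt2 is open.

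The same comparison was made for the other mated groups, which share the estrus libraries with INT, so that their values are set side by side and are not independent of each other. In each of SVX, SVX_VAS and VAS against CONT, the 8 genes called in INT were called higher and none was called lower. The share of all tested genes called higher was 23.1% for SVX, 22.1% for SVX_VAS and 23.2% for VAS. Without overlap with the estrus libraries were 9 genes in SVX, 9 in SVX_VAS and 8 in VAS, all higher, against 35.2%, 33.5% and 26.7% of tested genes. Without VAS replicates 2 and 3, 9 of the 10 genes in VAS lay above the estrus libraries without overlap, as did 33.5% of tested genes. The median logFC of the 10 genes was 1.82 in SVX, 1.65 in SVX_VAS and 1.62 in VAS. For Angpt1 the logFC was 3.68 in SVX, 3.41 in SVX_VAS and 3.74 in VAS. For Tek it was 2.58, 2.45 and 2.29, for Kdr 2.18, 2.06 and 1.95, and for Tie1 1.93, 1.87 and 1.63 in the same order. The VAS values without replicates 2 and 3 were 3.38 for Angpt1, 2.21 for Tek, 1.98 for Kdr and 1.65 for Tie1, and the 8 genes were still called. The lower-fold receptors gave 0.81, 0.92 and 0.91 for Flt1 and 0.96, 0.80 and 1.18 for Flt4, again in the order SVX, SVX_VAS, VAS. glmTreat against 1.5-fold did not call Flt1 in SVX (FDR 0.0944) or Flt4 in SVX_VAS (FDR 0.133). Vegfc had logFC of 2.10, 1.86 and 2.26 and Vegfd of 1.71, 1.45 and 1.61. Without VAS replicates 2 and 3, the VAS values were 1.77 for Vegfc, 1.16 for Vegfd, 0.70 for Flt1, 0.91 for Flt4 and 0.25 for Vegfa (not called).

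Between the mated groups none of the 10 genes passed the edgeR test with all libraries. The edgeR test of any difference among INT, SVX, SVX_VAS and VAS gave FDR from 0.649 (Flt4) to 0.895 (Vegfd) for the 10 genes, and no tested gene of the whole table passed, with 1213 genes at an unadjusted p below 0.05. Without VAS replicates 2 and 3 the same test gave FDR from 0.949 to 0.950 (Flt4) for the 10 genes and again passed no tested gene, with 463 at an unadjusted p below 0.05, and VAS against INT passed none, with 163. With all libraries, DESeq2 called 21 genes and limma-voom 1396 in the test among mated groups, none of them among the 10. Against INT, edgeR called no gene in SVX, SVX_VAS or VAS (749, 339 and 1831 genes at an unadjusted p below 0.05), while DESeq2 called 3, 2 and 0 and limma-voom 0, 0 and 1661. No one of the 10 genes had an unadjusted edgeR p below 0.05 in any of these comparisons with all libraries. Their logFC against INT ran from -0.31 (Angpt2 in VAS) to 0.42 (Angpt1 in VAS), and the 95% intervals reached from -0.83 (Vegfc in SVX_VAS) to 1.01 (Angpt1 in VAS). Without VAS replicates 2 and 3, the VAS values were 0.10 for Angpt2 and 0.00 for Angpt1. Intervals of this width leave room for sizeable differences in the less abundant genes, and a value that misses the threshold does not show that the groups were alike.

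The VAS libraries spread more than those of the other mated groups for several genes. VAS replicate 1 was the lowest of the 16 mated libraries for 5 genes (Vegfd, Flt1, Tek, Tie1 and Angpt1), while VAS replicate 2 was the highest for 3 (Vegfd, Flt1 and Angpt1) and VAS replicate 3 for 2 (Vegfc and Flt4). Without VAS replicate 1, Angpt1 was called higher in VAS than in INT (logFC 0.68, edgeR FDR 0.0454), where 576 genes in all were called. Without VAS replicates 2 and 3, its logFC was 0.00. For Angpt1, SVX alone had no library overlapping INT, with all 4 of its libraries higher, a pattern that 1.35% of tested genes showed in that comparison.

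Compared per length of exon (CPM per kb), the order of the 10 genes shifted between estrus and day 3.5 pc. At estrus, Vegfa stood at 25.95 ± 3.67 CPM per kb (SD, n = 3), above all others, followed by Tie1 at 6.11 ± 0.772. Next came Angpt2 at 4.69, Kdr at 4.34, Flt1 at 4.30 and Tek at 3.47 CPM per kb, neighbours whose library ranges overlapped. Flt4 (1.48), Vegfd (1.30), Vegfc (0.586) and Angpt1 (0.246 CPM per kb) were lower, each overlapping its neighbour in this order. In INT, Vegfa was again highest at 31.7 ± 1.53 CPM per kb (SD, n = 4), without overlap with the next gene. Tie1 (20.8), Kdr (16.98) and Tek (16.9 CPM per kb) followed with overlapping ranges and lay clear of Flt1 at 7.16. Below Flt1, each neighbour overlapped the next in the order Angpt2 (5.88), Vegfd (3.53), Flt4 (2.73), Vegfc (2.47) and Angpt1 (2.43 CPM per kb). Tie1, Tek and Kdr were also the 3 genes next to Vegfa in SVX, SVX_VAS and VAS.

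**Figure D3:**
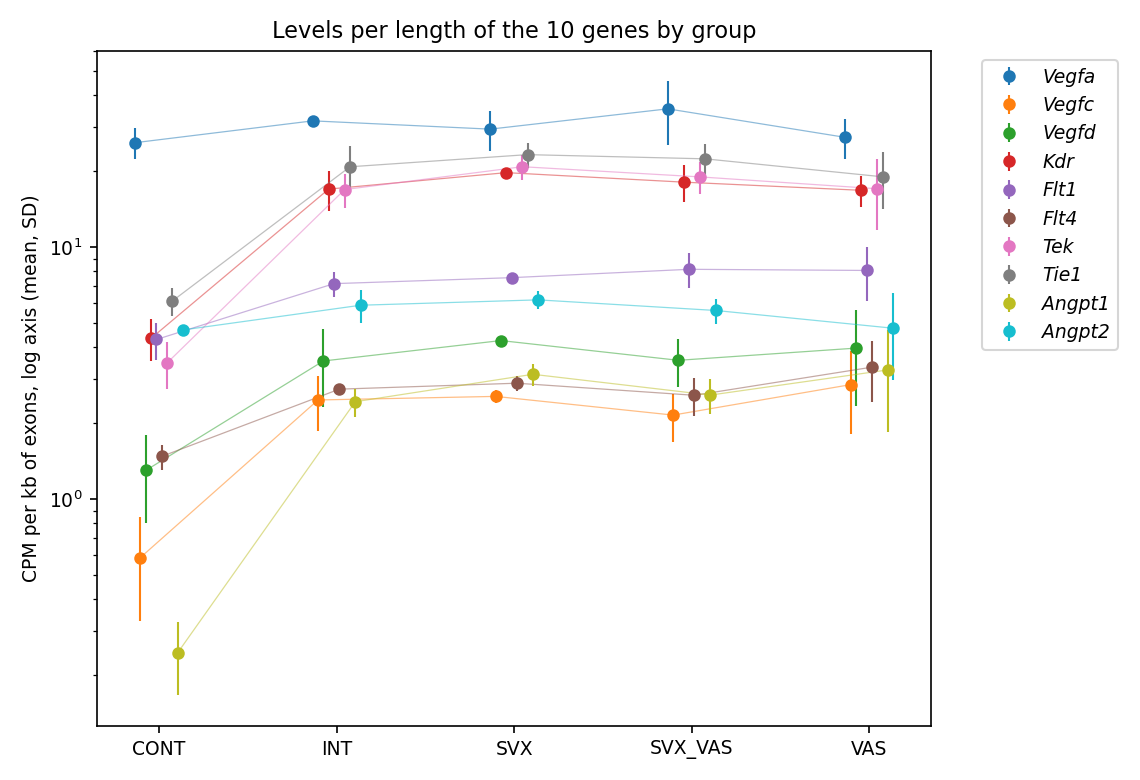
Mean level per length (CPM per kb of exons, log axis) of the 10 genes in each group, with the SD over libraries as a bar; thin lines only join the points of a gene. In INT, Tie1, Kdr and Tek lie between 16.9 and 20.8 CPM per kb, below Vegfa at 31.7, whereas at estrus they lie between 3.47 and 6.11.

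Since unequal rises change the balance of ligands and receptors, ratios of levels per length were computed inside each library, where library scaling cancels. The ratio of Angpt2 to Angpt1 was 22.1, 23.6 and 13.6 at estrus and 2.09, 2.93, 2.54 and 2.16 in INT, a difference of mean log2 ratio of -3.00. Flt1 to Kdr was 0.999, 0.965 and 1.01 at estrus and 0.486, 0.415, 0.402 and 0.401 in INT (log2 difference -1.22). Near parity of the 2 receptors per length at estrus thus stood against a level of Kdr that exceeded that of Flt1 in every INT library. A ratio near 1 depends on the exon lengths used, 13504 bases for Flt1 and 9030 for Kdr. In CPM, Flt1 was above Kdr in every estrus library. The difference between groups does not depend on these lengths. Vegfa to Kdr was 6.47, 5.72 and 5.84 at estrus and 2.41, 2.03, 1.71 and 1.52 in INT (log2 difference -1.67). Tek to Tie1 was 0.503, 0.611 and 0.579 at estrus and 0.966, 0.752, 0.816 and 0.759 in INT (log2 difference 0.54). The estrus and INT libraries did not overlap for any of the 4 ratios. Each gave p = 0.0571 in the exact two-sided permutation test, the smallest that 4 against 3 libraries can give, and 0.183 after Benjamini-Hochberg adjustment over the 16 tests made.

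Among the mated groups the ratio of Flt1 to Kdr was 0.386, 0.390, 0.376 and 0.382 in SVX, all below INT. That difference was small (log2 -0.15), and the exact two-sided permutation p of 0.0286, the smallest for 4 against 4 libraries, became 0.183 after adjustment. On leaving out each library, the difference ranged from -0.18 to -0.08. In SVX_VAS the ratio was 0.367, 0.694, 0.391 and 0.419, with replicate 2 far above the rest, and in VAS it was 0.399, 0.668, 0.457 and 0.412. For Angpt2 to Angpt1, SVX had 2.39, 1.61, 1.82 and 2.16, SVX_VAS had 2.05, 1.97, 1.88 and 2.96, and VAS had 4.43, 0.599, 1.09 and 1.87. VAS replicate 2 was the only library with more Angpt1 than Angpt2 per length. The other comparisons of a mated group with INT gave exact permutation p of 0.114 or more, and 3 of the 4 VAS differences changed sign without VAS replicates 2 and 3. The remaining VAS difference, of Vegfa to Kdr, went from -0.22 to -0.07.

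**Figure D4:**
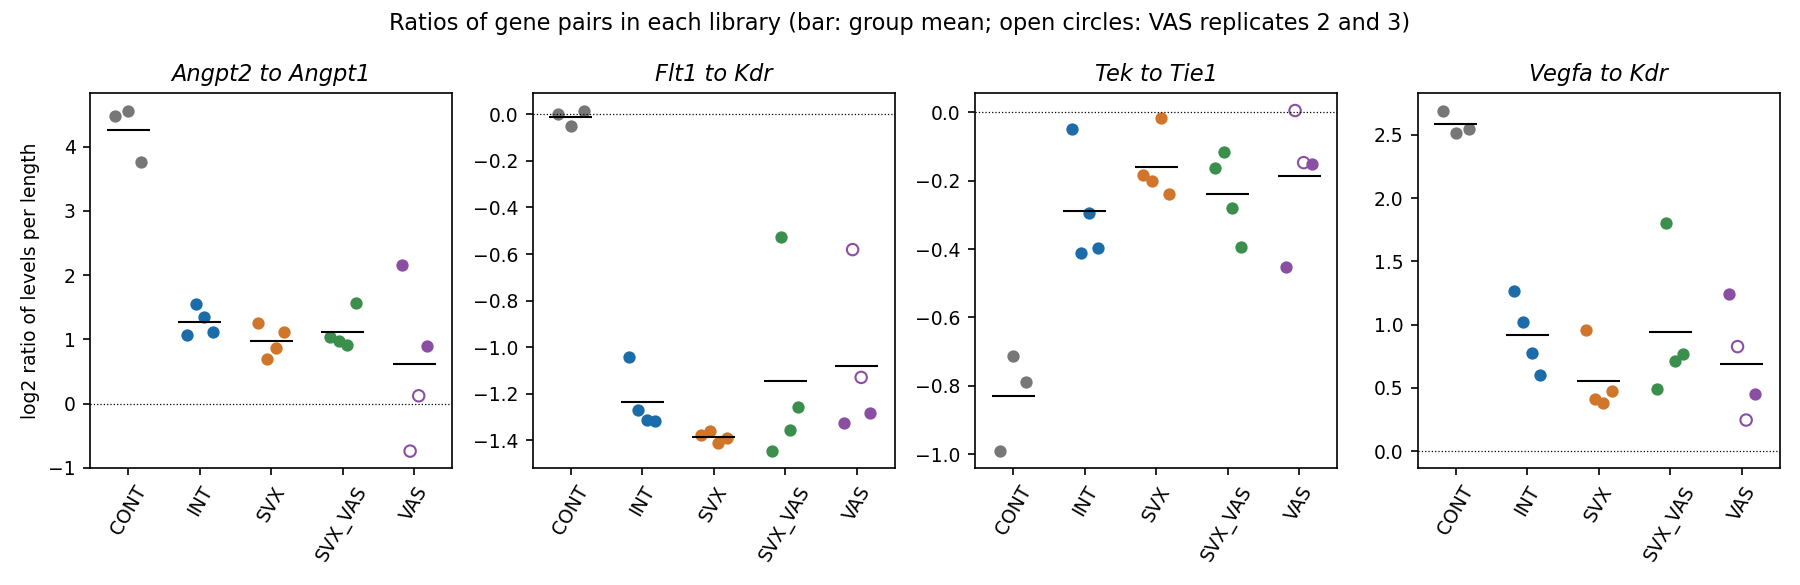
Log2 ratio of levels per length of 4 gene pairs in each library by group; the bar is the group mean, open circles are VAS replicates 2 and 3, and the dotted line marks equal levels. The ratio of Flt1 to Kdr lies near 1 at estrus (0.965 to 1.01) and at most 0.694 in all 16 mated libraries.

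Genes that work beside the 10 were taken from a list of further ligands, co-receptors and processing proteins. Of its 9 tested genes, 8 rose in INT and none fell, with a median logFC of 1.17. Pgf, placental growth factor and a ligand of Flt1, went from 1.15 ± 0.140 CPM at estrus (SD, n = 3) to 8.16 ± 4.85 CPM in INT (SD, n = 4), with a logFC of 2.82 (SE 0.42, edgeR FDR 6.83e-05). Pgf was under 3 CPM in every estrus library, at most 1.28 CPM, and was tested through its mated libraries alone, so its rise was in part a condition of being tested. Ccbe1, which together with Adamts3 helps to activate Vegfc, had a logFC of 2.48 (FDR 0.000266), whereas Adamts3 itself was not called (0.70, FDR 0.0615). The neuropilin co-receptors Nrp1 (logFC 1.17, FDR 1.59e-06) and Nrp2 (0.82, FDR 0.00124) rose, as did Vegfb (0.80, FDR 0.00590), another ligand of Flt1. Ptprb, the phosphatase that restrains Tek, had a logFC of 1.02 (FDR 0.000262). Svep1, an extracellular protein that binds angiopoietins and Tie1, reached 1.87 (FDR 0.000109), and Thsd1, an endothelial membrane protein, reached 2.03 (FDR 1.11e-05). Angpt4 was below the filter and was not tested.

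Further down the pathway the directions were mixed. Of 13 genes of signalling below the receptors, 5 rose and 3 fell, with a median logFC of 0.33. Nos3, endothelial nitric oxide synthase, rose by 2.09 and Pxn, the adhesion adaptor paxillin, had -0.81. Of 15 VEGF-induced and Notch genes of vessels, 8 rose and 1 fell (median 0.70): Apln, the peptide apelin, rose by 2.97, and Dll4, the Notch ligand of tip cells, was the gene that fell, with -0.65. Apln, Hey2 (2.13) and Esm1 (0.20, not called) of this list were under 3 CPM in every estrus library and were tested through mated libraries alone, which bears on its count of rises and on its median. Of 14 hypoxia genes none rose and 5 fell (median -0.86), with Ankrd37 lowest at -2.18. Vegfa itself is a textbook hypoxia target and was not called in either direction.

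Markers of the cell types that could carry these genes moved with the groups. Of 16 endothelial markers, none of them one of the 10 genes, 14 rose in INT and none fell, with a median logFC of 1.46, and Emcn, the endothelial sialomucin endomucin, rose most (2.44). Their summed level was 686 to 963 CPM at estrus, 1618 to 2342 CPM in INT, 2070 to 2434 CPM in SVX, 1780 to 2354 CPM in SVX_VAS and 1341 to 2405 CPM in VAS. The 2 largest parts of the estrus sum were Cd34 (mean 282 CPM) and Sox17 (mean 127 CPM). They were also the 2 markers not called in INT (logFC 0.37 and 0.54). Set against the mean log2 CPM of all 16 markers in the same library, the INT minus CONT difference was 1.69 for Angpt1, 0.78 for Tek, 0.45 for Kdr and 0.24 for Tie1. It was -0.63 for Flt4, -0.77 for Flt1, -1.20 for Angpt2 and -1.22 for Vegfa, and it was 0.53 for Vegfc and -0.09 for Vegfd. In whole tissue, more endothelial cells and more RNA of these genes per cell cannot be told apart. Of 7 pericyte markers 6 rose (median 1.13, Mcam most at 2.43), with sums of 281 to 347 CPM at estrus and 808 to 1210 CPM in INT, 1070 to 1273 CPM in SVX, 1024 to 1255 CPM in SVX_VAS and 594 to 1245 CPM in VAS. Of 4 tested lymphatic markers only Pdpn, which stromal cells also express, was called (1.18), and the lymphatic regulator Prox1 was not.

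Of 7 epithelial markers 4 fell in INT and none rose (median -1.32, Epcam lowest among the called at -1.52). Their sum was 3176 to 4302 CPM at estrus, 749 to 2268 CPM in INT, 799 to 1062 CPM in SVX, 936 to 1982 CPM in SVX_VAS and 503 to 1992 CPM in VAS. No epithelial, endothelial or pericyte marker was at 0 in any library. Of 5 red blood cell genes, among them near-identical globin copies, 4 rose (median 1.48, Hbb-bs 1.69). The stromal list had 4 of 8 higher (Hoxa11 2.72), smooth muscle 1 of 7 (Des 0.85), macrophages 2 of 6 higher and 1 lower (Adgre1 1.04, Cd68 -1.22) and neutrophils 1 of 2 tested (Csf3r 1.64, a gene under 3 CPM in every estrus library). What part these shifts had in the values of the 10 genes was not tested.

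Hormone-response lists showed how far the mated libraries varied. Of 7 estrogen-response genes 3 fell in INT (median -1.91, Greb1 lowest at -2.50), and of 8 progesterone-response genes 7 rose (median 3.04), the largest fitted rise being that of Calca, which averaged 0.0608 CPM at estrus, under the level of 3 counts. Calca and Areg of this list, both under 3 CPM in every estrus library, were tested through mated libraries alone. The median log2 CPM of the estrogen-response list was 9.36, 9.27 and 9.42 at estrus and 8.99, 7.42, 4.77 and 4.72 in INT. It was 8.88 in SVX_VAS replicate 2, against 4.21, 4.39 and 6.41 in replicates 1, 3 and 4, and 6.57 in SVX replicate 1 against 4.36 to 4.68 in the other SVX libraries. It was 7.27, 6.48, 6.06 and 4.53 in VAS. SVX_VAS replicate 2 and SVX replicate 1 were also the 2 highest of all 19 libraries for Vegfa. Vegfa stood at 102 to 129.6 CPM at estrus and at 140.1 CPM in INT replicate 1, the 4 libraries with the highest estrogen-response level. In SVX_VAS replicate 2 the hypoxia genes summed to 1748 CPM, against 1036 to 1094 CPM in the other SVX_VAS libraries, 1537 CPM in INT replicate 1 and 1638 to 1770 CPM at estrus. INT replicate 1, with the highest estrogen-response level of the INT libraries, was the lowest INT library for 5 of the 10 genes (Kdr, Tie1, Vegfc, Flt4 and Angpt2) and INT replicate 2, with the next highest, for 4 (Vegfd, Flt1, Tek and Angpt1), while INT replicate 4 was lowest for Vegfa. Among INT libraries, replicate 1 also had the lowest endothelial sum (1618 CPM). Its epithelial (2268 CPM) and smooth muscle (1363 CPM) sums were the highest. Whether this variation bears on the 10 genes was not tested.

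**Figure D5:**
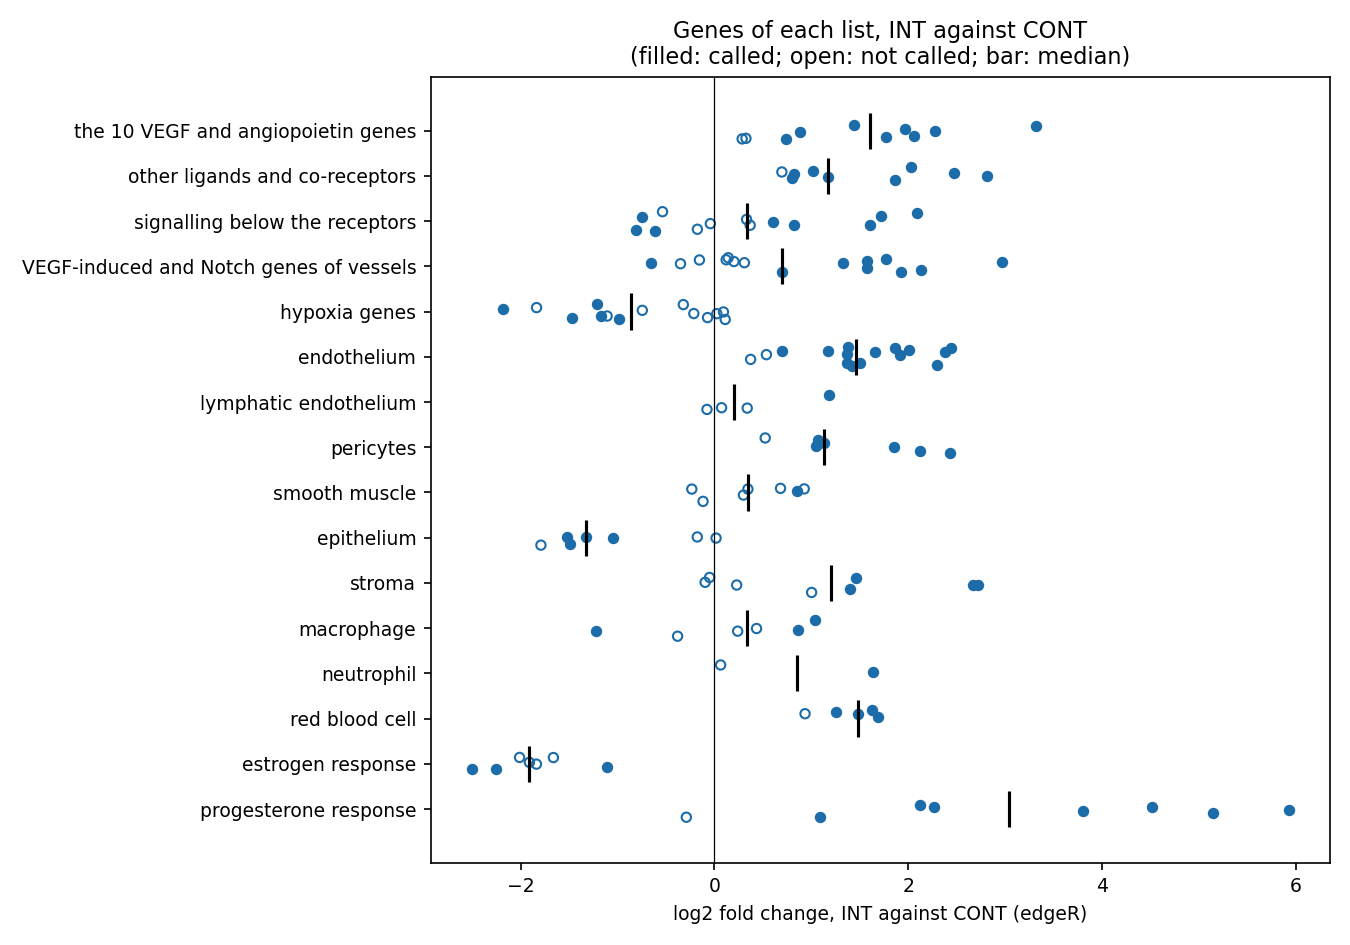
Log2 fold change of INT against CONT (edgeR) for each tested gene of the 10 and of each list; filled points were called, open points were not, vertical offsets within a row carry no meaning and the bar is the median. The 10 genes have a median of 1.60, beside 1.46 for endothelium, 1.13 for pericytes, -0.86 for hypoxia genes and -1.32 for epithelium.

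Across all 19 libraries the receptors followed each other. Pearson's r of log2 CPM was 0.99 between Tek and Tie1, 0.98 between Kdr and Tek and 0.98 between Kdr and Tie1, and it was 0.97 between Tek and Angpt1. Flt1 and Flt4 followed Kdr less closely (0.84 and 0.86). Vegfa gave at most 0.35 with any of the other 9 genes (Flt1), and Angpt2 at most 0.37 (Tie1). Over the 17 libraries without VAS replicates 2 and 3, the r of Angpt2 was 0.74 with Kdr and 0.73 with Tie1, and that of Vegfa with Flt1 was 0.56. The r of Kdr was then 0.89 with Flt1 and 0.94 with Flt4, and that of Tek was 0.99 with Tie1 and 0.98 with Angpt1. The points share libraries and depth. For the 8 genes called in INT, all 16 mated libraries lay above the 3 estrus libraries, a step that enters each r between them. Over the 19 libraries Vegfa and Angpt2 showed no such step, since their estrus libraries lay inside the range of the mated libraries. Without VAS replicates 2 and 3, every mated library of Angpt2 lay above its estrus libraries. The gap was small (at least 17.58 CPM in INT against at most 17.54 CPM at estrus). That step thus enters the r of Angpt2 over the 17 libraries, whereas Vegfa still overlapped. All these values of r are descriptions with no test.

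The tested genes with the most similar pattern, by Pearson's r over the 19 libraries, were Emcn (0.994), Map2 (0.993) and Adgrl4 (0.993) for Kdr. They were Tenm3 (0.997), Ednrb (0.996) and Fli1 (0.996) for Tek, and Rasip1 (0.994), Hoxd4 (0.989) and Dlc1 (0.989) for Tie1. For Angpt1 they were Hmcn1 (0.989), 5330437M03Rik (0.989) and Kank4 (0.988). For Flt1 they were Zfp821 (0.966), Clasp1 (0.963) and Cyp3a57 (0.957), and for Flt4 they were Map4k1 (0.968), Neu3 (0.967) and Abcd2 (0.965). Vegfc was nearest to Dock10 (0.983), Arhgap45 (0.982) and Tcf21 (0.980), and Vegfd to Tent5c (0.964), Snx30 (0.964) and Bmper (0.963). Angpt2 was nearest to Akap8 (0.936), Tmem255b (0.936) and C130050O18Rik (0.936). Vegfa had the weakest likeness, with Morc2a (0.797), Ndel1 (0.795) and Rab24 (0.715). Without VAS replicates 2 and 3, the r of these same genes was 0.817 to 0.875 for Angpt2, 0.667 to 0.785 for Vegfa and 0.955 or more for the other 8.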

How the data were processed

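Total RNA of pooled endometrium was made into strand-specific total RNA libraries and sequenced as read pairs. The authors removed adapters, aligned reads with STAR to GRCm38 (mm10) and counted them per gene with featureCounts. The versions of STAR and featureCounts and the strand setting were not given in the sources used here. The deposited values are raw counts of 49089 genes in 19 libraries. Totals of 12661266 to 31781270 limit precision as stated beside low genes, and the limit of 3 counts covers counting error only. Symbols, positions and exon lengths came from GENCODE on GRCm38.

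Groups came from the labels. The 17222 genes reaching 3 CPM in 3 or more libraries were fitted by quasi-likelihood (glmQLFit, then glmQLFTest) in edgeR 4.0.16 under R 4.3.3, with TMM scaling, the 5 groups together and no replicate block; calls needed FDR of 0.05 or less and 1.5-fold. Log2 CPM used a prior count of 2, and ratios had 0.5 counts added. Ratios were compared by exact permutation in scipy 1.17.1. On simulated data made for INT against CONT, with 200 changed genes among 17222, the fit called 9 of 50 genes at 1.5-fold, 37 of 50 at 2-fold and 50 of 50 at 4-fold, with 5 false calls. The simulation gave every gene the same dispersion, had no libraries that stood apart and changed far fewer genes than were called here. Its rates may therefore not hold for these data. No pair of libraries of the same group matched within sampling noise. Alternatives were other scaling factors, DESeq2 1.42.0, limma-voom 3.58.1, glmTreat, other filters, a replicate block, only the groups compared, and leaving out libraries.

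The 10 genes, the lists and the ratios were chosen with earlier results of these data known. Named were all 10 genes, each gene of the ligand and co-receptor list, the largest called rise and fall of each other list in INT against CONT, and the 3 genes nearest to each of the 10 by correlation; further genes and libraries singled out were chosen after their values were seen.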

Additional observations from a re-analysis of the deposited data

Results flagged for a closer look

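Vegfa in SVX replicate 1 stood at 161 CPM, against 112 to 118 CPM in the other SVX libraries, a gap that was large for a group of 4 by Dixon's criterion. Vegfa in SVX_VAS replicate 2 stood at 217 CPM, against 129 to 131 CPM in the other SVX_VAS libraries, and met the same criterion. These were 2 of 40 gene and group combinations searched, and chance gives about 1 in 20, which is 2.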

How the results depend on the processing

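All 8 calls against CONT were made in each of the 4 mated groups under DESeq2, limma-voom, DESeq2 size factors, both other filters and every omission of a library; glmTreat called 6, 7, 7 and 8 genes in INT, SVX, SVX_VAS and VAS, and upper quartile scaling called 9 in SVX_VAS. Of 976 alternative values of single genes, 963 kept their side of the threshold and, where the test has one, their direction. These values covered the 10 genes against CONT and in the test among mated groups, which has no direction. Of the comparisons with INT, they covered only Angpt1 and Angpt2 in VAS. The number of the 10 genes called in VAS against INT ranged from 0 to 1 on leaving out each library. Angpt2 in VAS against CONT turned to -0.11 with limma-voom, -0.0084 at a filter of 1 CPM, -0.0274 without a filter, and between -0.19 (without VAS replicate 4) and 0.23 (without VAS replicate 2) on leaving out each library, with -0.09 without VAS replicate 1. Vegfa in VAS against CONT was -0.0428 without VAS replicate 1, and Angpt2 in VAS against INT was 0.10 without VAS replicates 2 and 3. The ratio differences in VAS against INT without those 2 libraries, added after the data were seen, were 0.26 for Angpt2 to Angpt1, -0.0684 for Flt1 to Kdr and -0.0141 for Tek to Tie1. For Vegfa to Kdr the difference was -0.0691. On leaving out each library, Flt1 to Kdr ranged from -0.12 to 0.19 in SVX_VAS and from -0.0104 to 0.24 in VAS against INT, and Vegfa to Kdr from -0.26 to 0.18 in SVX_VAS against INT. The cause was not tested.

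Replicate numbers did not pair the libraries: deviations of same-numbered libraries correlated from -0.69 to 0.58, over 0.1 in 15 of 36 pairs. With a replicate block, 8 of the 10 genes were called in each mated group against CONT and 0 in each comparison of mated groups, and 5594 genes were called in INT against CONT, against 5780 without it. Over all genes and both directions, glmTreat called 3332 in INT, 5054 in SVX, 4214 in SVX_VAS and 4318 in VAS against CONT. The main edgeR test called 5780, 7147, 6636 and 6965 in the same order. Upper quartile scaling moved the median logFC of all genes by 0.13 to 0.20 against CONT and the share of calls that were higher in VAS from 57.4% to 70.5%, and limma-voom moved that share to 44.5%. VAS against INT had 576 calls without VAS replicate 1 and 134 without replicate 4, and the test among mated groups had 171 without VAS replicate 4. Low counts at estrus limit the precision of Vegfc and Angpt1.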
